A study of Mus musculus with 16 samples.

Results

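The response of CD8 T cells to stimulation was compared between WT cells and cells that lack GABPα, gene by gene. For each gene the change from 0 h to 18 h of stimulation was taken in KO and in WT CD8 cells, and the quantity described is the KO response minus the WT response, called the response difference below. All 12394 genes measured on the arrays were members, of 12394 in the whole series, and each was read from the probe set with the highest mean among those that map to that gene alone. The difference rests on 8 of the 16 arrays, in 4 groups of 2 biological replicates. WT cells came from Gabpa f/f mice, in which both alleles carry loxP sites and no Cre is present, and KO cells from CD4Cre Gabpa f/f mice, all on a C57BL/6 background. In both genotypes naive CD8+ T cells (CD25-, CD62Lhi and CD44lo) were sorted from spleen and lymph nodes, and one portion was lysed directly (0 h) while the other was stimulated for 18 h through plate-bound antibodies to CD3 and CD28 in the presence of IL-2. The CD4 promoter drives Cre from the double-positive thymocyte stage onward, so that Gabpa was deleted in the thymus, in future CD4 and CD8 cells alike and long before the sort. The labels do not say how many mice gave each replicate, nor do they give the age of the mice.

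GABP is an Ets family transcription factor in which GABPα binds DNA through GGAA-containing sequences and a GABPβ subunit activates transcription. A naive CD8 T cell rests outside the cell cycle. Signals through the T cell receptor and CD28, sustained by IL-2, make it grow, raise protein synthesis and nucleotide production, load MCM helicases onto replication origins and enter S phase, and many of the genes for these steps are switched on by E2F factors within the first day. Genes of mitosis and of homologous recombination follow the same cell cycle programme.

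Values are log2 probe set levels, differences are log2 units with their standard error (SE) from limma, and n = 2 arrays per group throughout. A gene was called where the adjusted p of limma's two-sided test, over all genes, was under 0.05 and the fold was over 1.5, and "rose", "fell", "higher" and "lower" are used of a comparison only where it was called. Cd8a, which encodes a chain of the CD8 coreceptor, ranged from 10.89 to 12.01 in these arrays against at most 7.56 in the CD4 arrays of the series. Cd4 did not exceed 5.59. The B cell marker Cd79a was at 3.54 to 4.26 and the myeloid marker Lyz2 at 3.41 to 5.75. Mean levels over 14 B cell and 16 myeloid markers were 4.26 to 5.33 and 4.06 to 4.66, beside 5.99 to 6.15 over all genes. Single members were much brighter, as the log2 of the summed level was 10.61 to 11.96 and 10.80 to 11.64. The part of such cells in these results was not tested. KO replicate 2 at 18 h stood apart from the other arrays. Its 3′ minus 5′ difference over actin and Gapdh probe sets, which grows as RNA is degraded, was 3.76 against 0.46 to 1.58 in the other 15 arrays, and 190 genes lay more than 2 log2 units below KO replicate 1 at 18 h. None of the 33 genes called below was among the 190, but a gap of that size widens a gene's SE and makes a call unlikely. In bulk samples such as these, fewer cells of a type and less RNA per cell cannot be told apart.

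Gabpa itself gave 9.05 and 9.34 in WT and 9.18 and 9.45 in KO cells at 0 h, and 9.24 and 8.74 in WT and 9.50 and 9.09 in KO cells at 18 h. These levels overlap between genotypes. Whether this probe set lies within the deleted exons is not given in the sources used here, so it checks neither the deletion nor the labels. Its response difference was 0.19 ± 0.28. Gabpb1, which encodes a GABPβ subunit, was at 6.14 and 6.67 in WT and 8.01 and 8.06 in KO cells at 0 h, and at 6.42 and 6.87 in WT and 8.06 and 8.09 in KO cells at 18 h. It was thus higher in KO cells at both times, by 1.63 ± 0.22 and 1.43 ± 0.22, and its response difference was -0.20 ± 0.31 (limma adjusted p = 0.918).

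The response differed between KO and WT cells for 33 genes, 0.266% of the 12394 tested. For 28 of them (0.226%) the KO response was lower, and for 5 (0.0403%) it was higher. Of the 33, 17 were on one of 40 gene lists of pathways and cell type markers and 16 on none. The lists of origin licensing (4 genes), recombination (3), the replication fork (2), mitosis (2) and tRNA charging (2) held more than 1 lower gene each. The 5 were Rbp4, Rgs16, Trib2, Cdkn1a and Ahnak. The median response difference over all genes was 0.05, with 43.9% of genes below 0. These values, with 0.226% of genes called lower and 0.0403% called higher, are the reference for each gene list below. Among the 28 genes the WT response had a median of 2.48 (range 0.51 to 4.16) and rose in 27, beside 8.21% of all genes, while the KO response had a median of 0.52 (range -1.22 to 1.42), rose in 5 and fell in 2, beside 3.67% and 3.86% of all genes. These responses are the terms of the difference, share its arrays and are given as a description. For all 33 genes both KO responses, taken within a replicate number, lay on the same side of both WT responses, as they did for 41.9% of all genes.

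**Figure D1:**
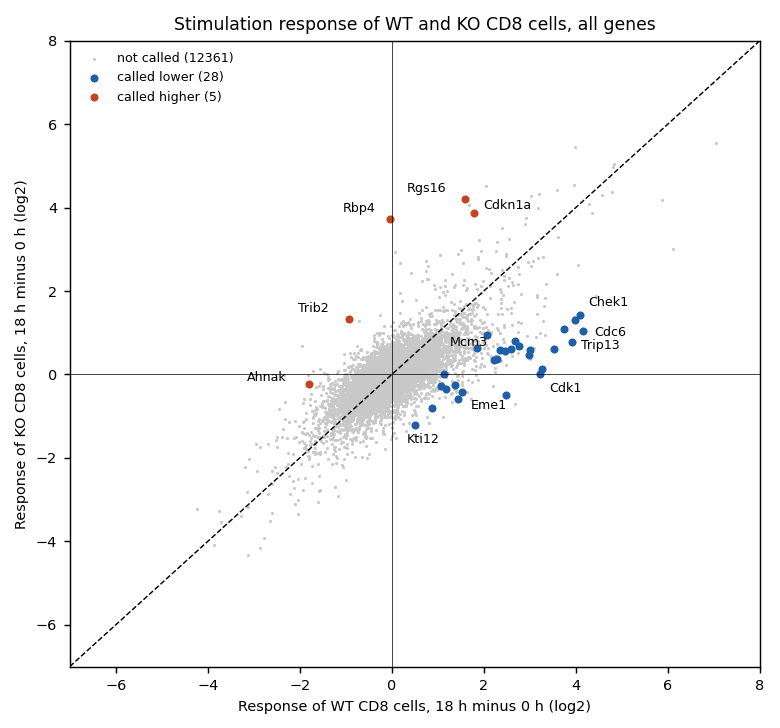
Response to 18 h of stimulation in WT (horizontal axis) and KO (vertical axis) CD8 cells, in log2 units, with a point per gene and the dashed line where both are equal. The 28 genes called lower lie below the line with WT responses up to 4.16 and KO responses no higher than 1.42, and Rbp4 stands alone at a KO response of 3.73 and a WT response of -0.05.

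The number of calls depended on single arrays. Without KO replicate 2 at 18 h, the array of highest 3′ minus 5′ difference, 37 genes were called, 23 of the 33 among them, and the 28 lower genes had a median difference of -2.15 in place of -1.96. Without WT replicate 2 at 18 h the calls dropped to 2, without KO replicate 1 at 0 h to 2, without WT replicate 2 at 0 h to 3, without WT replicate 1 at 0 h to 12 and without KO replicate 2 at 0 h to 8, whereas they grew to 126 without WT replicate 1 and to 271 without KO replicate 1 at 18 h. Leaving out any 1 of the 8 CD4 arrays, which enter the CD8 response difference through the estimate of the spread alone, gave 7 to 19 calls. In all 28 genes WT replicate 2 was above WT replicate 1 at 18 h. The share of all genes in which it was is not given here, so this need not be particular to the 28. The 28 genes stayed below 0 in each of these fits, with medians of -2.33 to -1.74. They were chosen for values far below 0 in these same arrays, so their sign is no independent check. With the replicate number as a block, 61 genes were called, 8 higher and 53 lower, and all 33 were among them. The study divided the sorted cells between 0 h and 18 h. With each sort as a block, 24 of the 33 were called. Any adjusted p given below for a block is from the fit with the replicate number. When each array was centred on its median 8 genes were called, with 37.5% of the calls higher in place of 15.2%.

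Among the 40 gene lists, which leave out 16 of the called genes, that of origin licensing and the MCM helicase held the most calls. Of 23 measured members of this list, 4 responded less in KO cells (Cdc6, Mcm5, Mcm3 and Mcm6), none responded more, and 21 were below 0, against 43.9% of all genes. The list's median was -1.08 (-1.33 without WT replicate 1 and -0.86 without WT replicate 2 at 18 h) beside 0.05 for all genes, from a median response of 1.67 in WT and 0.48 in KO cells. Cdc6, which loads the MCM helicase onto origins, was at 4.66 and 4.11 in WT and 6.45 and 6.54 in KO cells at 0 h, and at 7.98 and 9.11 in WT and 7.11 and 7.98 in KO cells at 18 h. KO cells thus started above both WT arrays and ended at or below them, and the response was 17.9-fold in WT and 2.07-fold in KO cells. The response difference of Cdc6 was -3.11 ± 0.54 (limma adjusted p = 0.0388).

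Mcm3 and Mcm5 encode subunits of the helicase ring. Mcm3 stood at 8.45 and 8.32 in WT and 8.91 and 9.11 in KO cells at 0 h, and at 10.43 and 11.04 in WT and 9.41 and 9.80 in KO cells at 18 h. Mcm5 stood at 6.99 and 6.58 in WT and 7.72 and 7.48 in KO cells at 0 h, and at 9.02 and 9.72 in WT and 8.04 and 8.38 in KO cells at 18 h. In both genes the 4 groups did not overlap: KO arrays were the higher ones before stimulation and the lower ones after it. The response differences were -1.75 ± 0.29 for Mcm3 and -1.98 ± 0.33 for Mcm5 (limma adjusted p = 0.0356 for each). Mcm6, another subunit of the ring, had the smallest difference of the 4 at -1.22 ± 0.21, from a 3.62-fold response in WT and a 1.55-fold response in KO cells, both called. Mcm10 and Cdc45, which turn the loaded ring into an active helicase, had differences of -2.23 ± 0.52 and -2.02 ± 0.50. These did not pass the test (limma adjusted p = 0.137 and 0.167), nor did they with the replicate number as a block (adjusted p = 0.0512 and 0.08).

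At the replication fork, 2 of 31 measured genes responded less in KO cells, Uhrf1 and Lig1, beside 0.226% of all genes. Of the 31 genes 30 were below 0, beside 43.9% of all genes. Their median was -0.97 (-1.36 to -0.72 with 1 array left out). With the replicate number within each lineage fitted as a block (the replicate block) 6 were called, and 4 without KO replicate 2 at 18 h. Lig1, the ligase that joins Okazaki fragments, gave 7.14 and 7.18 in WT and 8.09 and 7.88 in KO cells at 0 h, then 9.06 and 9.84 in WT and 8.24 and 8.48 in KO cells at 18 h. All 4 KO levels lay between the resting and the stimulated WT arrays. The response difference was -1.92 ± 0.30 (limma adjusted p = 0.0273). Uhrf1, which keeps DNA methylation in place behind the fork, gave 7.20 and 6.43 in WT and 8.50 and 8.40 in KO cells at 0 h, then 9.86 and 10.83 in WT and 8.76 and 9.38 in KO cells at 18 h. Its response was 11.6-fold in WT and 1.54-fold in KO cells, and the latter was not called. Another 4 called genes act at or near the fork but were on no list. Dtl, the adaptor of the ubiquitin ligase that destroys licensing factors in S phase, was at -2.68 ± 0.47. Traip, a ubiquitin ligase of the replisome, was at -2.03 ± 0.30, and its other probe set at -0.11. Chtf18, part of a loader of the PCNA clamp, was at -1.63 ± 0.28. Cdca7, which aids a chromatin remodeller of methylated regions, was at -1.87 ± 0.34.

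The lowest value of the fork list, and of all 12394 genes, was that of Rfc3, a subunit of the clamp loader, at -3.38 ± 0.74. Rfc3 was not called (limma adjusted p = 0.122, and 0.0752 with the replicate block). Its KO arrays at 18 h gave 7.12 in replicate 1 and 4.71 in replicate 2, the array of highest 3′ minus 5′ difference. Without that array Rfc3 was at -2.18 and passed the test (adjusted p = 0.0222), and it was no longer the lowest gene. The nuclease and helicase gene Dna2 was at -2.70 ± 0.55 (adjusted p = 0.0915), and passed the test without that array (-3.28, adjusted p = 0.0236) and with the replicate block (adjusted p = 0.0318).

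**Figure D2:**
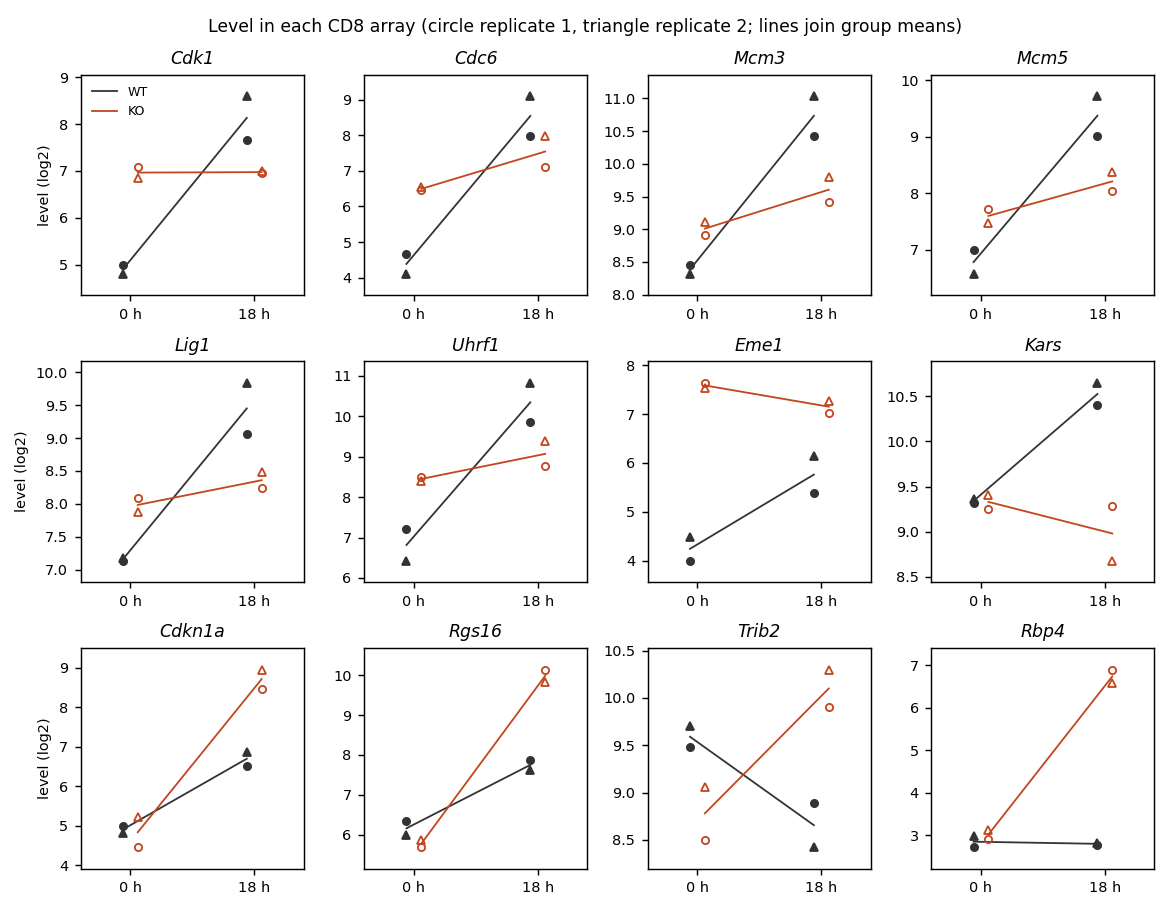
Log2 level of 12 called genes in each of the 8 CD8 arrays at 0 h and 18 h, WT in black and KO in orange, with circles for replicate 1, triangles for replicate 2 and lines through the group means. Cdk1 held near 7 in all 4 KO arrays while its WT arrays went from 4.81 and 5.0 to 7.66 and 8.60, and Rbp4 left the range of 2.71 to 3.11 in KO arrays at 18 h alone.

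For thymidylate, folate and dNTP synthesis none of 21 measured genes was called, although 19 were below 0. The median was -0.65 (-0.85 to -0.55 with 1 array left out). Rrm2, the inducible subunit of ribonucleotide reductase, came closest at -2.63 ± 0.50 (limma adjusted p = 0.0636, and 0.0424 with the replicate block). With that block Rrm2 was the 1 gene called of the 21. Tk1, the thymidine salvage kinase, was at -2.05 ± 0.62 (adjusted p = 0.296, and 0.13 with the replicate block). Tyms, the thymidylate synthase, gave 4.50 and 3.52 in WT and 4.14 and 3.54 in KO cells at 0 h, then 5.15 and 5.46 in WT and 3.39 and 3.35 in KO cells at 18 h. Its groups overlapped at 0 h and separated at 18 h, where KO cells were called lower (-1.93). The response difference of -1.76 ± 0.41 did not pass the test (limma adjusted p = 0.137, and 0.0551 with the replicate block). The 2 other, dimmer probe sets of Tyms were at 0.05 and 0.11. Of the other replication genes that the study's text names, which were chosen on these samples and so are no independent evidence of a direction, Lig1, Mcm3 and Mcm5 are given above, and Pola2, a subunit of the priming polymerase, was at -0.67 ± 0.22 and Shmt1, a folate enzyme, at -0.33 ± 0.53 (adjusted p = 0.345 and 0.919). For the catalytic subunit of that polymerase, the Pola1 CD8 response difference was -1.74 ± 0.34, with an adjusted p of 0.0694 that became 0.0362 with the replicate block. Skp2, which directs the degradation of cell cycle inhibitors, was at -0.84 ± 0.39 (adjusted p = 0.557).

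Among genes of mitosis, 2 of 23 measured responded less in KO cells, Cdk1 and Aurkb, none responded more, and 22 were below 0 with a median of -1.72. This median was -1.95 without WT replicate 1 and -1.04 without WT replicate 2 at 18 h, and -0.95 and -2.03 within replicate numbers 1 and 2. Cdk1, the kinase that drives entry into mitosis, had the lowest difference of all called genes. It was at 5.0 and 4.81 in WT and 7.09 and 6.84 in KO cells at 0 h, and at 7.66 and 8.60 in WT and 6.96 and 6.99 in KO cells at 18 h. The 4 KO arrays lay close together, between the resting and the stimulated WT levels, with a response of 9.35-fold in WT and 1.01-fold in KO cells. The response difference of Cdk1 was -3.21 ± 0.40 (limma adjusted p = 0.00897). Aurkb, the kinase of the chromosomal passenger complex, was at 4.23 and 3.65 in WT and 5.84 and 5.85 in KO cells at 0 h, and at 6.47 and 7.39 in WT and 6.17 and 6.45 in KO cells at 18 h. Its resting groups were far apart and its stimulated groups nearly touched, and the difference was -2.52 ± 0.40 (limma adjusted p = 0.029).

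At 0 h 15 of the 23 mitosis genes were called higher in KO cells and none lower, beside 1.13% and 0.5% of all genes. At 18 h 2 were called higher and none lower, beside 1.59% and 1.16% of all genes. The median KO minus WT difference of the list was 1.80 at 0 h and -0.04 at 18 h. Over all genes these medians were 0.02 and 0.07. Cenph, a kinetochore protein (-2.97 ± 0.46), Trip13, an ATPase of the spindle checkpoint (-3.13 ± 0.45), Ncapg2, a condensin subunit (-2.41 ± 0.43), and Cks1b, a small partner of cyclin-dependent kinases (-2.07 ± 0.35), were called as well. Cenph rose 5.59-fold on stimulation in WT cells, and its mean was 4.70 in WT and 7.41 in KO cells at rest and 7.18 and 6.92 after 18 h. Top2a, the topoisomerase that untangles chromosomes, and Bub1, a spindle checkpoint kinase, were each at -2.46 (SE 0.49 and 0.52). Neither passed the test (limma adjusted p = 0.0783 and 0.114). With the replicate block Top2a did (adjusted p = 0.0429) and Bub1 did not (adjusted p = 0.0543). Of the 26 G1 and S phase cyclins, kinases and E2F genes measured, Cks1b was lower and Cdkn1a higher, and the median was -0.51 (-0.64 without WT replicate 1 and -0.29 without KO replicate 1 at 18 h). The cyclins Ccne2 and Ccna2 were at -2.38 ± 0.53 and -2.25 ± 0.54 (adjusted p = 0.122 and 0.147). With the replicate block these adjusted p were 0.0558 and 0.0512.

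Homologous recombination and the replication checkpoint gave 3 called genes of 24 measured, all lower, with 21 of the 24 below 0 and a median of -0.53 (-0.85 without KO replicate 2 and -0.23 without KO replicate 1 at 18 h). Rad54l, a motor protein of strand exchange, stood at 4.90 and 4.07 in WT and 6.17 and 5.53 in KO cells at 0 h, and at 7.42 and 8.10 in WT and 6.43 and 5.53 in KO cells at 18 h. KO arrays overlapped between the 2 times, WT arrays did not, and the response difference was -3.14 ± 0.48 (limma adjusted p = 0.0267). Chek1, the checkpoint kinase of stalled forks, rose in both genotypes, 16.9-fold in WT and 2.68-fold in KO cells, from 4.68 and 4.40 in WT and 6.76 and 6.66 in KO cells to 8.24 and 9.01 in WT and 7.63 and 8.63 in KO cells. Its stimulated groups overlapped, its resting groups did not, and the difference was -2.66 ± 0.47 (adjusted p = 0.0388). The 3 other probe sets of Chek1 were at -2.11 to 0.06.

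Eme1, the partner of the Mus81 nuclease, was the exception among the 28 genes in that it stayed higher in KO cells at 18 h. It gave 4.0 and 4.48 in WT and 7.64 and 7.53 in KO cells at 0 h, and 5.38 and 6.14 in WT and 7.03 and 7.27 in KO cells at 18 h. All KO arrays were above all WT arrays, by 3.34 ± 0.23 at rest and by 1.39 ± 0.23 after stimulation, and the response difference was -1.95 ± 0.32 (limma adjusted p = 0.0355). Fignl1, which encodes an ATPase, was on no list and was at -2.65 ± 0.41. Its other probe set, a dimmer one, gave 0.48. Of 25 other probe sets of 16 called genes, 22 had the sign of the brightest one and 0 were called in the same direction. The uncalled Exo1, an end-resecting nuclease, and Fanci, a Fanconi pathway protein, were at -2.58 ± 0.62 and -1.70 ± 0.37 (adjusted p = 0.151 and 0.122). With the replicate block neither passed the test (adjusted p = 0.107 and 0.0645).

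Single genes of protein synthesis, folding and degradation also responded less in KO cells. Among 26 tRNA synthetases 2 were lower, Kars and Rars, which charge the tRNAs of lysine and arginine, 24 were below 0 and the median was -0.42 (-0.56 without WT replicate 1 and -0.25 without WT replicate 2 at 18 h). Kars was at 9.32 and 9.36 in WT and 9.25 and 9.41 in KO cells at 0 h, and at 10.40 and 10.65 in WT and 9.28 and 8.68 in KO cells at 18 h. The resting groups overlapped and the stimulated groups were more than 1 log2 unit apart, with a difference of -1.53 ± 0.28 (limma adjusted p = 0.0465) that was -1.23 and no longer passed the test without KO replicate 2 at 18 h (adjusted p = 0.0667). Rars was at -1.36 ± 0.24, and it too lost its call without that array (adjusted p = 0.0713). Kti12, a factor in the modification of tRNA wobble bases, fell in KO cells alone, from 8.09 and 8.53 to 6.77 and 7.41, while WT arrays went from 8.43 and 8.52 to 8.93 and 9.05. Its difference was -1.73 ± 0.29 (adjusted p = 0.0388).

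Pomp, the chaperone of proteasome assembly, was called lower too. It was at 10.26 and 10.45 in WT and 10.96 and 11.12 in KO cells at 0 h, and at 11.10 and 11.35 in WT and 10.24 and 10.24 in KO cells at 18 h. Pomp rose 1.83-fold in WT cells and fell in KO cells, and the 2 genotypes exchanged places, with a difference of -1.67 ± 0.23 (limma adjusted p = 0.0168). Of 37 proteasome genes themselves, 0 were called, 34 were below 0 and the median was -0.37 (-0.44 to -0.33 with 1 array left out). Sdf2l1, a cofactor of chaperones of the endoplasmic reticulum, was the one called gene of 23 in the ER unfolded protein response list and had one of the most even sets of values: 6.16 and 6.35 in WT and 7.23 and 7.43 in KO cells at 0 h, and 8.41 and 8.56 in WT and 7.70 and 7.64 in KO cells at 18 h. Replicates lay close together and the groups did not overlap, and the difference was -1.89 ± 0.22 (adjusted p = 0.0068). Acot7, an acyl-CoA thioesterase (-1.90 ± 0.25), Ppa1, a pyrophosphatase (-1.13 ± 0.20), and Nudc, a cochaperone that works with dynein (-1.11 ± 0.19), were called lower as well.

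The 5 genes that responded more in KO cells did so in different ways. Rbp4, the plasma carrier of retinol, had the highest difference of all genes. It was at 2.71 and 2.98 in WT and 2.92 and 3.11 in KO cells at 0 h, at 2.77 and 2.82 in WT cells at 18 h, and at 6.90 and 6.58 in KO cells at 18 h. In the first 6 arrays Rbp4 was at or under the 15.9th percentile of genes on its array, and it rose 13.2-fold on stimulation in KO cells. Whether these low levels were above background was not tested, and if they were not, the fold is a lower bound. The response difference was 3.77 ± 0.30 (limma adjusted p = 0.000303), and it was the single gene of the 33 that remained called whichever of the 16 arrays was left out, at 3.61 to 3.93.

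Rgs16, which quenches signals from G protein coupled chemokine receptors, rose in both genotypes. It was at 6.34 and 5.98 in WT and 5.68 and 5.87 in KO cells at 0 h, and at 7.87 and 7.63 in WT and 10.14 and 9.83 in KO cells at 18 h. The response was 3.01-fold in WT and 18.5-fold in KO cells, a difference of 2.62 ± 0.31 (limma adjusted p = 0.0068). Its 2 other probe sets were at -0.40 and 0.22, with neither called.

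Cdkn1a, the cyclin-dependent kinase inhibitor p21, also rose in both, from 5.0 and 4.81 in WT and 4.45 and 5.22 in KO cells to 6.52 and 6.87 in WT and 8.47 and 8.95 in KO cells. The resting groups overlapped, and the response was 3.46-fold in WT and 14.6-fold in KO cells. The difference was 2.08 ± 0.37 (limma adjusted p = 0.0444), and 1.84 without KO replicate 2 at 18 h (adjusted p = 0.0938). The other probe set of Cdkn1a was at 0.48. Cdkn1a was the one called gene among 26 p53 targets and apoptosis genes, whose median was 0.43 with 7 of 26 below 0. The apoptosis gene Phlda3 was at 0.95 ± 0.33 and the stress-induced gene Gadd45g at -1.78 ± 0.40, with adjusted p = 0.383 and 0.122.

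Trib2 and Ahnak fell on stimulation in WT cells. Trib2, a pseudokinase that steers protein degradation, went from 9.48 and 9.70 to 8.89 and 8.42 in WT cells and from 8.50 and 9.06 to 9.90 and 10.30 in KO cells. The genotypes moved in opposite directions, both called, and the difference was 2.26 ± 0.34 (limma adjusted p = 0.0267). Ahnak, a large scaffold protein, went from 8.27 and 8.40 to 6.62 and 6.43 in WT cells and from 7.73 and 7.72 to 7.31 and 7.66 in KO cells. The WT fall was 1.81 ± 0.19 on the log2 scale and the KO change was -0.24 ± 0.19, a difference of 1.57 ± 0.27 (adjusted p = 0.0388). Its 3 other probe sets were at 0.06 to 0.45 and none was called. Ahnak was the one called gene of 17 memory and effector T cell markers, whose median was 0.24 (-0.11 without WT replicate 2 and 0.67 without WT replicate 1 at 0 h). The log2 of the summed level of these markers was 12.30 to 12.54 in the 4 resting arrays, 11.17 to 11.58 in WT and 11.88 to 12.03 in KO cells at 18 h. The part of such cells in these results was not tested.

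The response difference equals the KO minus WT difference at 18 h less that at 0 h, and the genes differed in which of these carried it. These terms share arrays with the difference and with each other. In 26 of the 28 lower genes the KO mean was above the WT mean at 0 h, and in 27 it was below at 18 h, with medians of 1.36 and -0.87. At 0 h 15 of the 28 were called higher in KO cells, beside 1.13% of all genes, and at 18 h 15 were called lower, beside 1.16%, with 2 genes, Trip13 and Sdf2l1, called at both times in this way. Cenph (2.71 ± 0.32 at 0 h, -0.25 ± 0.32 at 18 h), Chek1 (2.17 ± 0.33 and -0.49 ± 0.33) and Cdc6 (2.11 ± 0.38 and -1.0 ± 0.38) were called at rest and not at 18 h. Kars (-0.01 ± 0.20 and -1.54 ± 0.20), Kti12 (-0.16 ± 0.21 and -1.90 ± 0.21) and Nudc (0.21 ± 0.13 and -0.91 ± 0.13) were called at 18 h and not at rest. Mcm3, Mcm5, Mcm6, Lig1 and Cdca7 were called lower at 18 h, with uncalled values of 0.44 to 0.83 at 0 h. The 5 higher genes were all called higher in KO cells at 18 h, as were 1.59% of all genes, and none was called at 0 h. In either direction 1.63% of all genes were called at 0 h and 2.75% at 18 h.

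**Figure D3:**
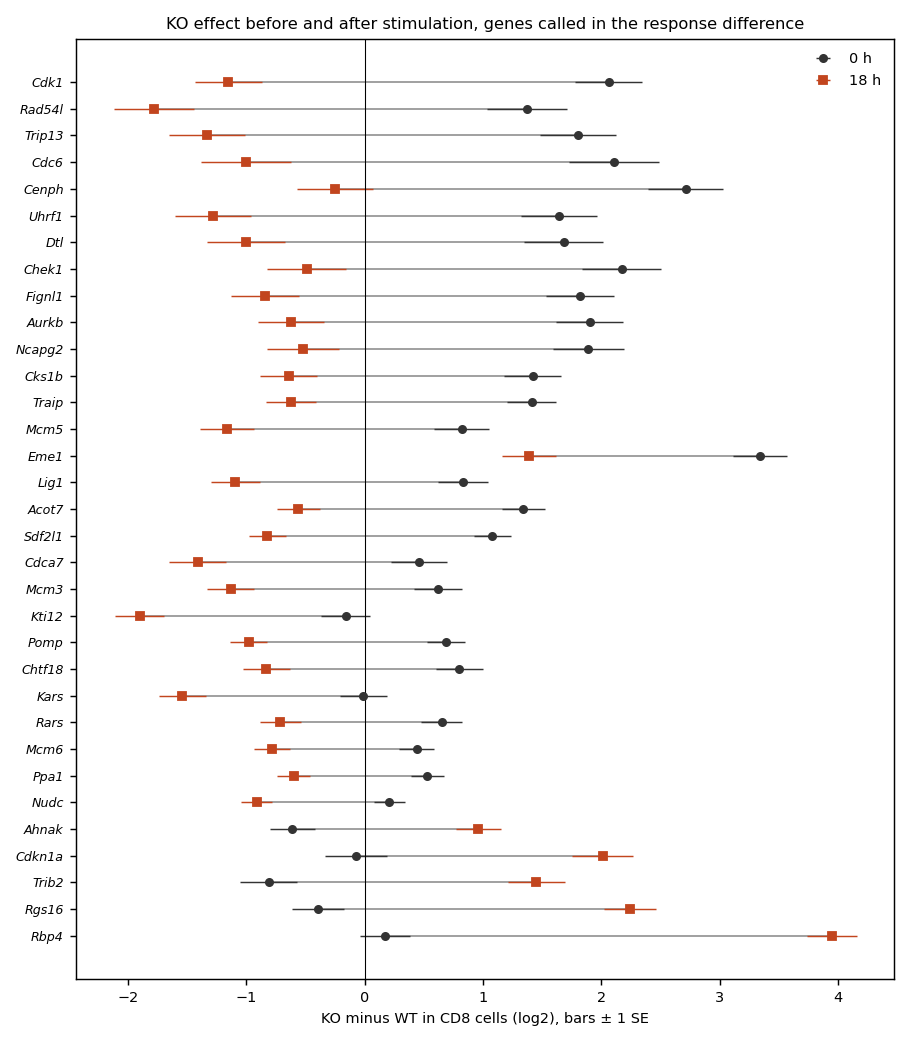
KO minus WT difference of the 33 called genes in CD8 cells at 0 h (black circles) and 18 h (orange squares), in log2 units with bars of 1 SE, ordered by response difference from lowest at the top to highest at the bottom. For 26 of the 28 lower genes the 0 h point is right of 0 and for 27 the 18 h point is left of 0, and Eme1 has both points on the right.

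Promoter sequence from RefSeq (assembly GRCm38.p6, 250 bases before to 50 after the start site) was found for 26 of the 28 lower genes and for all 5 higher ones. The motif CCGGAAG, or its reverse complement CTTCCGG, is a common form of the Ets site. It was present in 7 of the 26 lower genes (26.9%: Trip13, Cenph, Traip, Eme1, Kti12, Pomp and Kars), in 0 of the 5 higher ones, and in 16.4% of the 9883 tested genes with a promoter. The shorter string CGGAA or TTCCG lies inside this motif, was searched after the promoters had been seen, and occurred in 18 of the 26 (69.2%), 0 of the 5 and 46.9% of all. A match describes letters in a window and not a bound site. The promoters of the called helicase genes Mcm3 and Mcm5 are shown with the 4 lowest genes that hold the longer motif. Capitals mark CGGAA or TTCCG on the strand of the gene.
Mcm3 (chr1:20820263-20820562, minus strand): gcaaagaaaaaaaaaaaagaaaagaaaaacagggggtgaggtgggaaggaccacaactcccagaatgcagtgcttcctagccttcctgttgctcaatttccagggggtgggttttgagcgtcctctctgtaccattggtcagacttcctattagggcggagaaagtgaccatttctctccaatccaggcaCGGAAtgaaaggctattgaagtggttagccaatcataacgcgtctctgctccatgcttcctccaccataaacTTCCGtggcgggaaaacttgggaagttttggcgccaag
Mcm5 (chr8:75109259-75109558, plus strand): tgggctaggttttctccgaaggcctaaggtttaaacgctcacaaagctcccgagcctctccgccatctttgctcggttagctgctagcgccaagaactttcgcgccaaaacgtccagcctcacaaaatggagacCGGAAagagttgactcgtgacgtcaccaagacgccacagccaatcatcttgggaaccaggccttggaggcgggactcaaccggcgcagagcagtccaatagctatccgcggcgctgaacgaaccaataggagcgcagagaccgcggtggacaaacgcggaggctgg
Trip13 (chr13:73937718-73938017, minus strand): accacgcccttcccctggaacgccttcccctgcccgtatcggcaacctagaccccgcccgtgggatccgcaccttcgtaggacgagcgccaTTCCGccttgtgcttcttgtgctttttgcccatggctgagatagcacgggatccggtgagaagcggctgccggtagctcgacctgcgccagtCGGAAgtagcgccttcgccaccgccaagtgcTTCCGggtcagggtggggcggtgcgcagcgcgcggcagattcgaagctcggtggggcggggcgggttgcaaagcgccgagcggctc
Cenph (chr13:100775850-100776149, minus strand): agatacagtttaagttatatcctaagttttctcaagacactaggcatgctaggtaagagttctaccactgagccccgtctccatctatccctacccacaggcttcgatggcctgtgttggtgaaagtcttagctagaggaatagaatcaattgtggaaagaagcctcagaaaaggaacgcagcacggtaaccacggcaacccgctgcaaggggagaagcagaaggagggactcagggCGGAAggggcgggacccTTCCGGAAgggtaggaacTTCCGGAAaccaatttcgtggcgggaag
Traip (chr9:107950713-107951012, plus strand): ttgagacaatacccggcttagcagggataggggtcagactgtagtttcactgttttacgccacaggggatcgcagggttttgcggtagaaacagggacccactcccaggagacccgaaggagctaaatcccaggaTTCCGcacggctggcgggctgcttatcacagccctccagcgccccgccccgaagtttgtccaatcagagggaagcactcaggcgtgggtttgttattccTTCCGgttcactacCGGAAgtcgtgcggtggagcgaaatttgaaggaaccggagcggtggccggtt
Eme1 (chr11:94653694-94653993, minus strand): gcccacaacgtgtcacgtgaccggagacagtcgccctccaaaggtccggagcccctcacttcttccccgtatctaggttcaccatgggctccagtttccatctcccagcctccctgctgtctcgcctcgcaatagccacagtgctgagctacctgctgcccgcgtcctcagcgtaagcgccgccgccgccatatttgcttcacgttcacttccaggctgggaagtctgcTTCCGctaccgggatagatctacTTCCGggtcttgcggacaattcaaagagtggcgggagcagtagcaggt
Cenph held 3 copies of the longer motif, Traip 2, Trip13 and Eme1 1 each, and Mcm3 and Mcm5 none. The study reports GABPα bound at the Mcm3 and Mcm5 promoters in T cells, with conserved GABP elements there. Both strings searched here are narrower than the GGAA core, and cores without the added C or G stay in lower case. The lack of a match, or its place, therefore says nothing on binding at these promoters.

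Outside these groups no gene of the remaining lists was called, and their medians are given as description. Lists of growth and metabolism were below 0: the mitochondrial ribosome had 70 of 75 members below 0 and a median of -0.37, the respiratory chain 63 of 73 and -0.25, sterol synthesis 14 of 16 and -0.55, glycolysis 14 of 18 and -0.44, and MYC and ribosome biogenesis 21 of 28 and -0.38. Beside the all-gene median of 0.05 these were shifts of under 1 log2 unit, and they moved with single arrays. Without KO replicate 2 and without KO replicate 1 at 18 h, the mitochondrial ribosome's median was -0.65 and -0.16, that of the respiratory chain -0.48 and 0.01, and that of glycolysis -0.66 and -0.27. The median of MYC and ribosome biogenesis was -0.22 without KO replicate 1 at 18 h, and that of sterol synthesis -0.33 without WT replicate 2 at 18 h. In sterol synthesis the medians were 1.26 for the WT and 0.45 for the KO response, with Fdps and Cyp51, enzymes of the pathway, at -1.44 ± 0.34 and -1.30 ± 0.33. The mitochondrial elongation factor gene Tufm was at -1.01 ± 0.23 (limma adjusted p = 0.137). Interferon response genes had 26 of 28 members below 0 and a median of -0.65, from medians of -0.87 in WT and -1.28 in KO responses. It was -1.03 without WT replicate 2 and -0.31 without WT replicate 1 at 18 h.

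**Figure D4:**
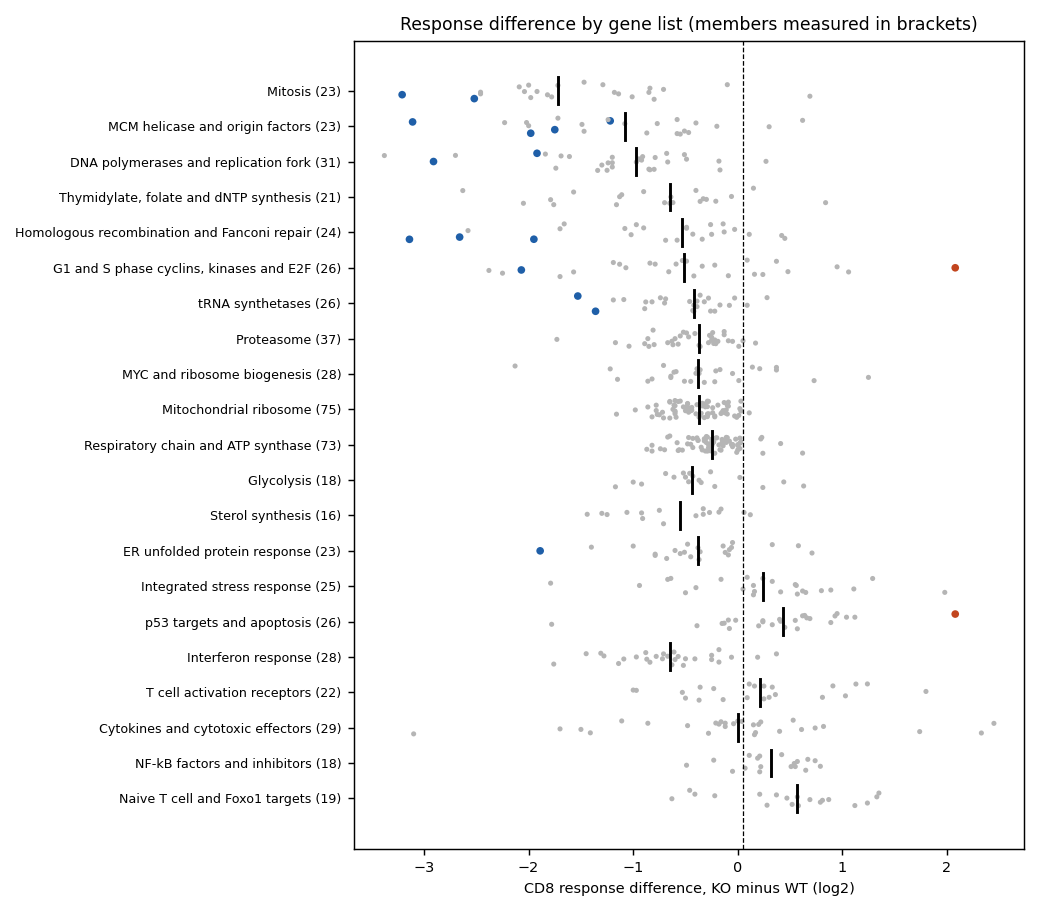
CD8 response difference in log2 units for each measured member of 21 gene lists, with black bars at list medians, a dashed line at the all-gene median of 0.05, blue points for genes called lower and orange points for genes called higher. The medians run from -1.72 for mitosis and -1.08 for MCM helicase and origin factors to 0.57 for naive T cell and Foxo1 targets.

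Among genes of T cell activation, 0 of 22 activation receptors were called and the median was 0.21 (0.01 without WT replicate 1 at 18 h). Il2ra, the high-affinity IL-2 receptor chain, was at 3.34 and 3.88 in WT and 2.64 and 3.48 in KO cells at 0 h, and at 7.95 and 8.87 in WT and 7.49 and 8.56 in KO cells at 18 h. It rose by 4.80 in WT and by 4.96 in KO cells on the log2 scale, the groups overlapped at both times, and the difference was 0.16 ± 0.73 (limma adjusted p = 0.977). Ctla4, an inhibitory receptor of activated cells, rose by 3.03 and 4.27 with a difference of 1.24 ± 0.60.

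The cytokines and cytotoxic effectors spread most widely, from -3.10 to 2.45 with a median of 0.00 (-0.21 without KO replicate 2 at 18 h) and 0 of 29 called. Gzmb, the cytotoxic protease granzyme B, gave 5.66 and 5.66 in WT and 6.90 and 7.54 in KO cells at 0 h, then 11.81 and 11.75 in WT and 10.53 and 9.95 in KO cells at 18 h. In these 8 arrays the groups did not overlap. The difference of -3.10 ± 1.23 did not pass the test (limma adjusted p = 0.472, and 0.0512 with the replicate block). The SE was taken over all 16 arrays. Il2 gave 4.06 and 4.10 in WT and 3.77 and 4.99 in KO cells at 0 h, then 4.88 and 7.39 in WT and 8.62 and 9.15 in KO cells at 18 h, with WT replicates far apart and a difference of 2.45 ± 1.01 (adjusted p = 0.489). Irf8, a transcription factor induced by receptor signals, rose by 4.43 in WT and by 1.88 in KO cells, a difference of -2.55 ± 0.69 (adjusted p = 0.212, and 0.015 with the replicate block).

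Naive T cell and Foxo1 target genes had 15 of 19 members above 0 and a median of 0.57, from medians of -0.87 in WT and -0.63 in KO responses, with 0 called. This median was 1.15 without KO replicate 2 and 0.16 without WT replicate 2 at 18 h. Klf2, which keeps naive cells quiescent and recirculating, was at 1.35 ± 0.52 and fell in WT cells by 1.56 on the log2 scale, and Tob1, an inhibitor of proliferation, was at 1.33 ± 0.48. Il7r, the IL-7 receptor chain of resting T cells, was at 1.24 ± 0.78. Among NF-kB factors and inhibitors 15 of 18 were above 0, with Nfkbia, the inhibitor of NF-kB, at 0.79 ± 0.19 (limma adjusted p = 0.151). Bcl6, a transcriptional repressor, fell by 2.45 on the log2 scale in WT cells and changed by -0.83 in KO cells, which was not called, with a difference of 1.62 ± 0.38 (adjusted p = 0.142). The death ligand gene Fasl was at 1.74 ± 0.41 (adjusted p = 0.140).

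The study's text also names mitochondrial genes, chosen on these samples. Of 11 such genes 0 were called in the response difference and the range was -1.09 for Tmem126a to 0.70 for Mtx2. With the replicate block 1 of the 11 was called, Tmem126a (adjusted p = 0.0343). Mtx2, which encodes a protein of the outer mitochondrial membrane, was at 6.89 and 7.17 in WT and 3.49 and 3.79 in KO cells at 0 h and at 8.35 and 8.86 in WT and 5.46 and 6.35 in KO cells at 18 h. KO arrays were below all WT arrays at both times, with differences of -3.39 and -2.70, and Mtx2 rose in both genotypes, with a response difference of 0.70 ± 0.45. Ndufaf1 (-0.26 ± 0.51), Romo1 (-0.67 ± 0.43), Idh3b (-0.42 ± 0.23), Mtif2 (-0.44 ± 0.24) and Oma1 (-0.20 ± 0.20) were likewise lower in KO cells at both times. The remaining members, Dlst (-0.51), Mrps35 (-0.45), Mrpl16 (-0.59) and Stoml2 (-0.92), were lower in KO cells at 18 h and not called at 0 h, as was Tmem126a. Cox5b, a respiratory chain gene that the text names as a GABP target, was at -0.58 ± 0.35.

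Of the 5 stress and apoptosis genes of that text, none was called and 4 were above 0. Ddit3, the stress-induced factor CHOP, fell in WT cells and was higher in KO cells at 18 h, by 1.92, with a response difference of 1.29 ± 0.31 (limma adjusted p = 0.147). Pdia5 was at 0.71 ± 0.26 and Blcap at 0.57 ± 0.20. Other genes named there were Ccz1 (-0.20 ± 0.33), Nubp1 (0.12 ± 0.39) and Mcrs1 (0.12 ± 0.37), each lower in KO cells at both times, and Cdk6 (-0.66 ± 0.71) and Ccnd2 (-1.07 ± 0.90). For the cyclin gene Ccnd2 the KO arrays at 18 h gave 12.01 and 9.31, and the difference turned to 0.29 without the second of these, KO replicate 2.

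The same quantity was computed in CD4 cells, whose 8 arrays are separate from those of the CD8 cells. There the response differed for 175 genes (1.41% of 12394), 65 higher (0.524%) and 110 lower (0.888%). All 33 genes called in CD8 cells had the same sign in CD4 cells. Of them 25 were called there too, which is 75.8% of the CD8 calls and 14.3% of the CD4 calls. The spread of a gene was estimated over the arrays of both lineages together, so its SE was the same in each. A gene with a small SE was thus easier to call in both, and the overlap of calls is no independent replication. The share of all genes with the same sign in both lineages is not given here. Across all genes, which are not independent replicates, the 2 differences were correlated with r = 0.59, as a description. Cdk1 was at -2.86 ± 0.40 in CD4 cells, Mcm3 at -2.24 ± 0.29, Rgs16 at 2.78 ± 0.31 and Cdkn1a at 1.71 ± 0.37, each called. The lowest value in CD4 cells among the 33 was -4.41 ± 0.45 for Trip13.

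The 8 genes called in CD8 but not in CD4 cells were Cks1b, Mcm5, Acot7, Cdca7, Rars, Ppa1, Trib2 and Rbp4. Cdca7 was at -0.92 ± 0.34 in CD4 cells and Acot7 at -0.89 ± 0.25. Rbp4 was at 1.16 ± 0.30 there (limma adjusted p = 0.105), with 3.31 and 4.06 in KO cells at 18 h and 2.51 to 2.89 in the other 6 CD4 arrays, so that both KO arrays at 18 h were the highest in each lineage. The difference between the lineages was tested directly and 0 genes were called by limma, with 352 at an unadjusted p under 0.05. Rbp4 was the farthest apart of the 33, by 2.62 ± 0.43 (adjusted p = 0.295), and the gap was 0.04 to 2.62 in size over the 33. Without CD4 KO replicate 2 at 18 h, the CD4 array with the 4.06, the gap of Rbp4 was 2.99 ± 0.34 and passed the test (adjusted p = 0.0313). No other of the 33 genes was called between the lineages when 1 array was left out.

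**Figure D5:**
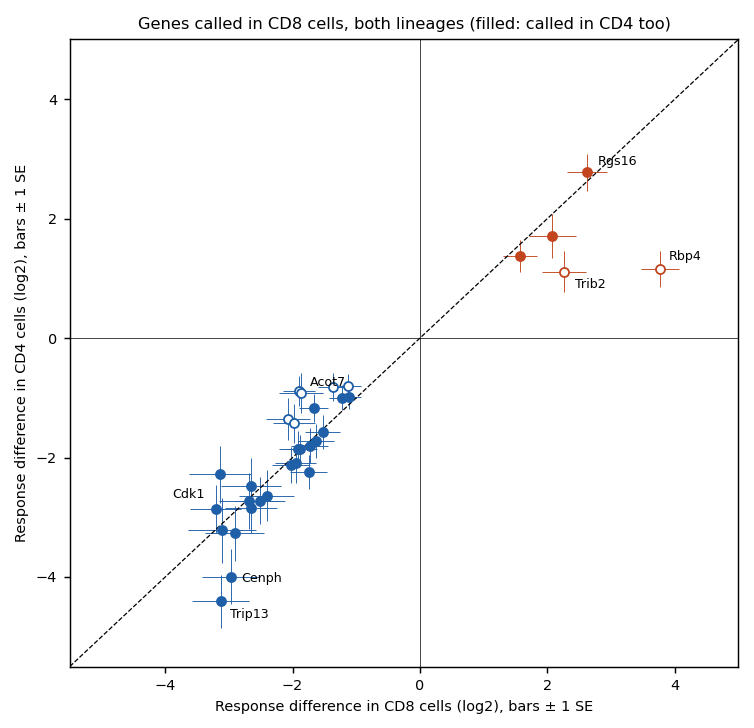
Response difference of the 33 called genes in CD8 cells (horizontal axis) and CD4 cells (vertical axis), in log2 units with bars of 1 SE, filled where the gene was called in CD4 cells too and with a dashed line where both are equal. All points lie in the quadrants of equal sign, 25 are filled, and Rbp4 is far from the line at 3.77 in CD8 and 1.16 in CD4 cells.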

How the data were processed

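RNA of sorted naive T cells, amplified in 2 rounds, was hybridized to Affymetrix mouse arrays, 16 in all (8 CD8). The authors deposited log2 probe set values made with the R package affy. Its version and summary method are not given in the sources used here. An array gives no depth of reads, so precision is set by how many arrays there are. Between-array normalization hides a change of total RNA per cell. Of 22690 deposited probe sets, 20393 named 1 gene, 691 several and 1606 none, and 20364 matched RefSeq (GRCm38.p6).

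The contrasts were tested in R 4.3.3 with limma 3.58.1 over all 16 arrays (8 residual and 4.32 prior degrees of freedom), without a block, and p-values were adjusted by Benjamini-Hochberg. For 4958 genes with several probe sets the brightest was used. The p-values reflect the spread between these arrays alone, which may be partly technical. When the CD8 response difference was simulated over 12394 genes, 22% of genes changed by 1 log2 unit and 87% of those changed by 2 were recovered, and 7 of 116 calls were false. The simulation drew independent noise with the same spread for a gene in every array. It held no array of poor RNA and no correlation between same-numbered arrays, so these rates need not hold for the real arrays.

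Members, lists and tests were chosen with earlier results of these data known. Named were the GABP subunits, the 15 highest and 15 lowest called genes whose KO responses lay on one side of the WT responses (the other called genes were added after their values were seen), genes in the study's text, for each list at most 4 called genes per direction and the 2 uncalled ones of largest size, and, for promoters, Mcm3, Mcm5 and up to 4 called genes with the motif; not every gene of the rule is printed. Replicate numbers were checked for pairing: the deviations of same-numbered arrays were correlated across genes at 0.18 to 0.56 in all 6 pairs of CD8 groups, so the fit with the replicate block is given beside the counts. The alternatives were scaling, filtering, probe set choice, spread model, block and left-out arrays.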

Additional observations from a re-analysis of the deposited data

Results flagged for a closer look

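For 33 genes the KO minus WT difference in CD8 cells was not the same at 0 h as at 18 h by limma's test of the interaction (adjusted p under 0.05 and a fold over 1.5), and these are the genes described above.

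Of 2297 probe sets that name several genes or none, and so belong to no comparison above, 1 was called in the CD8 response difference (0.0435%), in the higher direction. Of 51 Affymetrix control probe sets among them 0 were called.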

How the results depend on the processing

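Of the 33 genes called in CD8 cells, none changed sign under any alternative (886 results: 394 kept their call and 492 lost it). These genes were chosen for large differences in the same arrays, so the kept sign is no independent check. The count of calls, 33, was 8 after centring each array on its median, 19 with the mean of all probe sets of a gene, 1 with the CD8 arrays alone, 8 with array weights, 3 with the test against a fold of 1.5, and 7 without the 3 arrays of highest 3′ minus 5′ difference. With 1 array left out it ran from 2 to 271. Where an array is left out, the lone array of its group is assumed to vary like the other groups. For the CD4 response difference the 175 calls became 100 after centring and 26 against a fold of 1.5, and ran from 40 to 266. Of 40 gene lists, 9 held a called gene, and 3 did after centring, 0 with the CD8 arrays alone, 2 with array weights, 1 against a fold of 1.5, 1 without the 3 arrays, and 1 to 24 with 1 array left out. The 0 calls in CD8 minus CD4 cells became 0 to 4. Reasons for these moves were not tested, apart from fewer arrays in the fits that leave some out.

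With the replicate number as a block the CD8 calls were 61 (all 33 kept) and those of the CD4 response difference 350. With each sort as a block they were 36 (24 of the 33 kept) and 296.

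Uncalled genes near 0 turned sign when 1 array was left out. The response difference ran from -0.06 to 0.44 for Gabpa, -0.47 to 0.07 for Gabpb1, -0.81 to 0.14 for Shmt1, -0.87 to 0.35 for Ndufaf1, -0.60 to 0.20 for Ccz1, -0.33 to 0.56 for Nubp1, -0.35 to 0.58 for Mcrs1, -1.76 to 0.44 for Cdk6, -2.42 to 0.29 for Ccnd2 and -0.38 to 0.70 for Il2ra. Without the 3 arrays of highest 3′ minus 5′ difference, Ndufaf1 gave 0.10, Nubp1 -0.08, Mcrs1 -0.22 and Cdk6 0.39, and Nubp1 gave -0.32 as the mean of its probe sets.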
